A study of Mus musculus with 16 samples.

Results

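The response of the mouse ventricle to pressure overload differed between wildtype mice and mice with calpain-resistant junctophilin-2 in 16 genes. The quantity described here is the interaction of genotype and aortic constriction: the log2 effect of constriction in the mutant minus its log2 effect in wildtype, computed for each gene from all 16 libraries. Of 24421 entries in the count table, 13522 passed a filter on low counts and were tested, and 16 of these (0.118%) were called (edgeR, quasi-likelihood F test; p adjusted by Benjamini-Hochberg over all tested genes and under 0.05). In 12 genes (0.0887%) the interaction was above 0, so the effect of constriction was more positive in the mutant: the kinase gene Sgk1, the mitochondrial pyruvate carrier gene Mpc1, the antigen presentation genes H2-K1, B2m and H2-Eb1, the scavenger receptor gene Cd163, and Rgs2, Efemp1, Gdf10, Hand2, Man2a1 and Stk17b. In 4 genes (0.0296%) it was below 0: the growth factor gene Vegfa, and Plcd3, Tnik and Gpr157. The interactions of Sgk1 and Mpc1 were 1.19 ± 0.17 and 0.47 ± 0.07 (log2 ± SE, adjusted p = 0.0128 for both), and these 2 genes were also called in each of the 16 fits that left out 1 library. Those fits share most libraries with the fit that chose the genes, so they are not independent support. Neither gene was called by edgeR without 2 TAC libraries described below (adjusted p = 0.152 for both) or with marker levels as covariates.

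The 4 groups had 4 libraries each of polyadenylated RNA from frozen ventricles of C57BL/6N mice that were labelled male. WT mice were wildtype, and JP2CR mice were homozygous for Jph2 with the codons of residues 563 to 568 removed from the endogenous gene by knock-in. Surgery, either a control operation (sham) or transverse aortic constriction (TAC), was done at an age of 9 to 10 weeks, and hearts were taken 5 weeks later. The allele is at the gene's own locus and is carried by every cell, and no cell type was sorted from the ventricular tissue, so each value is a mix of cell types. In such tissue, fewer cells of a type and less RNA per cell cannot be told apart. No label names the animal behind a library, and the p-values therefore refer to the spread among these libraries, which may be technical.

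Junctophilin-2 bridges the transverse tubule membrane and the sarcoplasmic reticulum in heart muscle cells, which keeps the calcium channels that trigger contraction close to the calcium release channels. Calpains, proteases activated by calcium, cut junctophilin-2 in the stressed heart, and loss of the bridge goes with loss of coordinated calcium release. The knock-in removes residues at a calpain site, and the question put by the design is how the transcript response to pressure then differs.

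The deleted stretch is shown because it defines the genotype term of the interaction. It lies on chromosome 2, in the coding sequence of Jph2, on the minus strand. The 18 deleted bases are chr2:163339539-163339556 (GRCm38), in exon 4 of the 6 exons of one annotated transcript and exon 5 of the 7 exons of the other, and the annotated protein has 696 residues. The sequence below runs 5′ to 3′ on the coding strand over chr2:163339509-163339586, from GENCODE transcripts, with the deleted codons in capitals.
Jph2: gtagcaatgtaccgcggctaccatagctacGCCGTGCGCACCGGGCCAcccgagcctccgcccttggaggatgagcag
An in-frame loss of 18 bases does not remove the gene's count, so the level of Jph2 says nothing about whether a genotype label is right. Jph2 had 646, 703, 626 and 696 CPM (counts scaled to a common library total) in WT sham, 688, 636, 679 and 649 in WT TAC, 654, 612, 728 and 750.0 in JP2CR sham and 671, 589, 634 and 630.0 in JP2CR TAC. All 4 groups overlapped, and the interaction was -0.11 ± 0.09 (95% interval -0.30 to 0.08, adjusted p = 0.726).

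The promoters of the called antigen presentation genes are shown because these genes were called in the same direction. RefSeq (GRCm38.p6) gave a promoter for 15 of the 16 called genes. The 250 bases before an annotated start of transcription are printed 5′ to 3′ on the strand of the gene, for H2-K1 at chr17:34000334-34000583 (minus strand), H2-Eb1 at chr17:34305617-34305866 (plus strand) and B2m at chr2:122147437-122147686 (plus strand). The printed H2-K1 window lies inside the span given for the gene (chr17:33996012-34000619). Another annotated start of H2-K1, with the window chr17:34000348-34000597, is not printed. That window held 1 CCAAT box, on the opposite strand and 16 bases before its start. Capitals mark matches to the CCAAT box (letters CCAAT, read ATTGG where it lies on the opposite strand) and to the core of the interferon-stimulated element (letters GAAANNGAA), both searched on both strands.
H2-K1: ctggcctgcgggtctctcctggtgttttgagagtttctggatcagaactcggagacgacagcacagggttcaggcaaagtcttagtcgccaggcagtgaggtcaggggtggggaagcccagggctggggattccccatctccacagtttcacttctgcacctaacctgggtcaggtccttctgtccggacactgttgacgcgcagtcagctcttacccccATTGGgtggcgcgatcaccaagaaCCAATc
H2-Eb1: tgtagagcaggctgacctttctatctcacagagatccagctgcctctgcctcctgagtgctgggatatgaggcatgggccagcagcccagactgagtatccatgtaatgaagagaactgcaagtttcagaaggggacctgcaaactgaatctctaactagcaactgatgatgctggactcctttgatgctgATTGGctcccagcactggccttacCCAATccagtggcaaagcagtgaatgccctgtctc
B2m: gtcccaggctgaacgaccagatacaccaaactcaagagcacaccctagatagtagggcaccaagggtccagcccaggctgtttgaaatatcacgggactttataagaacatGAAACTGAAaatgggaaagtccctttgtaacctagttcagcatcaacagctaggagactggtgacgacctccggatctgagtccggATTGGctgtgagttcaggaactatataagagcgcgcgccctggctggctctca
All 3 windows held a CCAAT box on the opposite strand, 30, 59 and 53 bases before the start in H2-K1, H2-Eb1 and B2m. H2-K1 and H2-Eb1 also held one on the same strand, 6 and 35 bases before the start. B2m held a GAAANNGAA match 139 bases before the start, and the printed H2-K1 and H2-Eb1 windows held none. Only these letters were searched for this element. Other letter forms were not searched, so the missing match does not show that H2-K1 or H2-Eb1 lacks such an element. Among 32851 promoter windows of this length, 33.8% held a CCAAT box and 7.13% a GAAANNGAA match, so the first of these is common. A match describes the letters and is not shown to be a site.

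Some libraries stood apart, and results that rest on them are given with and without them. JP2CR sham 3 and 4 had 189 and 196 CPM of Xist, the RNA of the inactive X chromosome, and 0 counts of 4 Y-linked genes, while JP2CR TAC 4 held both, Xist at 141 CPM and the Y-linked genes at 118 CPM. The other 13 libraries had at most 0.266 CPM of Xist and 179 to 237 CPM of the Y-linked genes. By these genes JP2CR sham 3 and 4 go against their male label, and JP2CR TAC 4 held RNA of both sexes. All 3 are JP2CR libraries, so sex is not balanced between the genotypes or between JP2CR sham and JP2CR TAC. WT TAC 3 and JP2CR TAC 3 were intermediate: where replicates 1 and 2 of the same group differed, the third value fell between them in 91.9% and 91.7% of genes, against 84.0% for WT sham 3 and 27.8% for JP2CR sham 3. Replicate 4 fell between them in 75.5% in WT TAC, 65.0% in JP2CR TAC, 77.6% in WT sham and 32.1% in JP2CR sham. The JP2CR sham shares are over 352 genes only, and shares are high in the groups where replicates 1 and 2 differ in many genes. JP2CR sham 4 had 412 CPM summed over 15 atrial marker genes, against 2619 to 6430 CPM in the other JP2CR sham libraries. Total counts ran from 9966782 to 16609732 per library, and 3 counts were worth 0.185 to 0.314 CPM, which covers counting error only. Ventricular muscle markers were high in all groups, with a mean log2 CPM over 9 genes of 12.11 in WT after sham and 11.80 after TAC, and 12.14 in JP2CR after sham and 11.74 after TAC.

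The number of called genes moved with these libraries, and the values of the 16 genes moved less. Without the 3 libraries with Xist, which leaves 2 in JP2CR sham and 3 in JP2CR TAC, 213 genes were called higher (1.55% of those tested) and 159 lower (1.16%), among them all 16. Replicates 1 and 2 of JP2CR sham, the pair left in that group, differed in 352 genes. The same replicates differed in 2041 genes in WT sham, 3376 in WT TAC and 3081 in JP2CR TAC. The spread in this fit rests partly on that close pair. Its calls may therefore be too many and its adjusted p too small, here and below. Without the 2 intermediate TAC libraries edgeR called 0 genes, with 1049 at an unadjusted p under 0.05, where DESeq2 called 36 higher and 12 lower and limma voom 0. The adjusted p of the 16 genes then lay between 0.152 and 0.232, and their interactions were 0.956 to 1.04 times those from all libraries. With the mean levels of atrial and adipocyte markers as covariates, 1 gene was called higher, Cd163, and 1 lower that is not among the 16. In that fit the 16 interactions were 0.775 to 1.25 times their values without covariates, all in the same direction. Leaving out 1 library at a time gave between 2 and 93 genes called higher and between 0 and 27 lower.

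**Figure D1:**
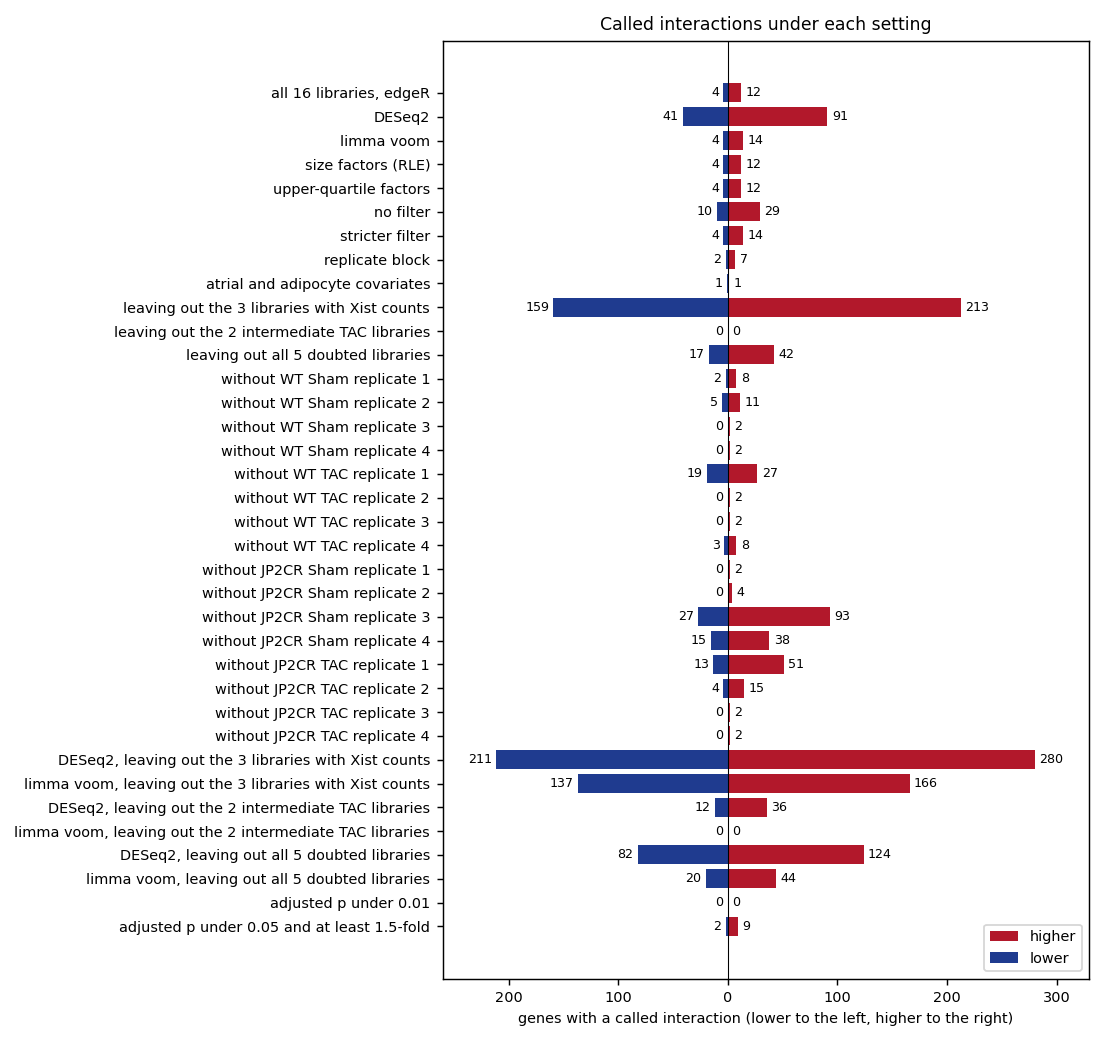
Number of genes with a called interaction under each setting, with genes called higher to the right and genes called lower to the left of 0. The bar for all 16 libraries shows 12 and 4 genes, the longest bars are the fits without the 3 libraries with Xist, and the bars without the 2 intermediate TAC libraries are at 0 in edgeR and limma voom.

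Over all genes tested, the interaction was centred near 0, with a median of -0.01 and quartiles of -0.12 and 0.12 (log2). At an unadjusted p under 0.05 there were 740 genes with a higher (5.47%) and 655 with a lower (4.84%) interaction, and these shares are the background against which gene groups are read below. Effects of TAC within each genotype were far more numerous: 41.9% of the tested genes were called for TAC in WT and 41.5% for TAC in JP2CR. Counts of TAC calls in the gene lists below are to be read against these shares. Genotype alone was called in 0.0961% of genes in sham and in 0.651% in TAC.

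The 16 genes fell into a few patterns of the 2 TAC effects. Of the 12 genes called higher, 8 had an estimate below 0 in WT and above 0 in JP2CR, 3 (Rgs2, Efemp1 and Gdf10) were below 0 in both with the larger size in WT, and 1 (Man2a1) was above 0 in both. Of the 4 called lower, 3 were above 0 in WT and below 0 in JP2CR, and Gpr157 was below 0 in both. TAC in WT was itself called in 15 of the 16 genes, in 12 as a fall and in 3 as a rise, and TAC in JP2CR in 11, in 7 as a rise and in 4 as a fall. In sham, 4 genes were called between the genotypes, all lower in JP2CR (Sgk1, Mpc1, H2-K1 and B2m), and in TAC 7 were (Efemp1, Man2a1, Cd163 and Gdf10 higher, Vegfa, Plcd3 and Tnik lower). These counts use the libraries that chose the genes, so they describe the 16 genes and support nothing further. The libraries of JP2CR and WT did not overlap in 10 of the 16 genes in sham and in 11 in TAC, against 4.76% and 8.09% of all genes tested, and nothing is read from this since the same libraries chose the genes.

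**Figure D2:**
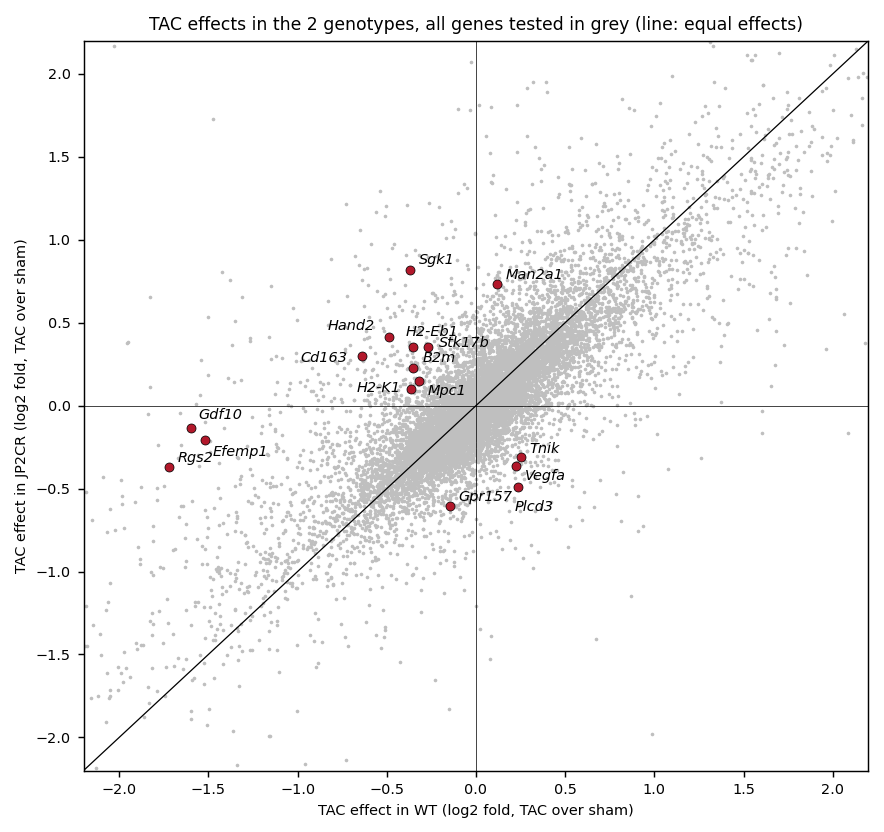
Effect of TAC in JP2CR against its effect in WT, each as log2 fold of TAC over sham, for the 13522 genes tested (grey) with the 16 called genes in red; 250 genes lie outside the axes. The called genes lie off the line of equal effects, with Rgs2, Efemp1 and Gdf10 far to the left and Sgk1 highest above 0 among them.

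Among genes of intracellular signalling, Sgk1 encodes a kinase that is induced by serum and by glucocorticoids and acts on ion channels and transporters (chromosome 10, chr10:21882184-21999903). Its level was 90.0, 102, 97.6 and 95.5 CPM in sham and 85, 67.5, 69.9 and 75.9 after TAC among WT libraries. In JP2CR it was 56.8, 53.1, 56.6 and 63.1 CPM in sham and 72.4, 124, 98.7 and 109 in TAC. Both TAC effects passed the test, with a fall in WT (-0.37 ± 0.12, adjusted p = 0.0167) and a rise in JP2CR (0.82 ± 0.12, adjusted p = 3.65e-05). JP2CR sham lay below all other groups, and JP2CR TAC 1 was the one library of its group that overlapped WT TAC.

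Rgs2 encodes a protein that speeds the shut-off of G protein signals (chr1:143999338-144004149). It had 55.6, 70.3, 63.5 and 59 CPM in sham and 21.6, 15.8, 15.4 and 22.6 after TAC among WT libraries. The JP2CR levels were 33.4, 33.8, 33.1 and 51 in sham and 33, 22, 27.5 and 33.5 in TAC. WT fell with no overlap, by 1.72 on the log2 scale (adjusted p = 2.46e-07), and in JP2CR the groups overlapped (-0.37 ± 0.16, adjusted p = 0.0699), which gave an interaction of 1.35 ± 0.22 (adjusted p = 0.0256). JP2CR sham 4, a library with Xist, was above the other JP2CR sham libraries, and without the 3 such libraries the interaction was 1.44 (adjusted p = 0.00212).

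Stk17b, a kinase gene of the death-associated family (chr1:53755512-53785237), had 21.1, 17.7, 20.6 and 19.7 CPM in sham and 18, 13.9, 16.4 and 17.3 after TAC among WT libraries, against 15, 15.8, 14.6 and 14.5 in sham and 18.6, 19.3, 18.3 and 20.5 after TAC among JP2CR libraries. It fell in WT (-0.27 ± 0.08, adjusted p = 0.0135) and rose in JP2CR (0.36 ± 0.08, adjusted p = 0.00244), and its interaction of 0.63 ± 0.12 had the highest adjusted p of the 16 (0.0417). Plcd3 encodes a phospholipase C, an enzyme that makes the second messengers of calcium release (chr11:103070296-103101710). Its levels were 20.4, 21.1, 18.2 and 19.7 CPM in sham and 26.5, 21.7, 22.6 and 22.8 after TAC among WT libraries, against 23.2, 20.6, 19.4 and 17.5 in sham and 15.3, 14.6, 14 and 13.6 after TAC among JP2CR libraries. Sham libraries of the genotypes overlapped, while every JP2CR TAC library was below every other library of the 4 groups. Plcd3 rose in WT (0.24 ± 0.09, adjusted p = 0.0335) and fell in JP2CR (-0.49 ± 0.09, adjusted p = 2.81e-04).

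Tnik, a kinase gene of the Wnt and cytoskeletal pathways (chr3:28261901-28670585), was also higher with TAC in WT and lower in JP2CR, with 29.4, 26.7, 28.7 and 25.6 CPM in sham and 31, 36.6, 31.3 and 32.2 after TAC among WT libraries, against 31.4, 33.2, 30.8 and 27.8 in sham and 25.9, 22.6, 24.7 and 26.3 after TAC among JP2CR libraries. Its TAC effect was 0.25 ± 0.07 in WT and -0.31 ± 0.07 in JP2CR (log2, adjusted p = 0.0103 and 0.00287). Gpr157 encodes a G protein-coupled receptor (chr4:150087503-150105927), with 94, 82.6, 88.7 and 89.9 CPM in sham and 83.2, 84.5, 79.9 and 72.9 after TAC among WT libraries, against 104, 107, 107 and 107 in sham and 65.3, 71.1, 71.1 and 71.3 after TAC among JP2CR libraries. The JP2CR libraries were the highest in sham and the lowest in TAC, with no overlap with WT in either, and the fall was larger in JP2CR (-0.61 ± 0.05) than in WT (-0.15 ± 0.05).

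In metabolism, Mpc1 encodes a subunit of the carrier that takes pyruvate into mitochondria (chr17:8283787-8297667). It had 288, 279, 278 and 283 CPM in sham and 221, 213, 228 and 241 after TAC among WT libraries. In JP2CR it had 236, 216, 236 and 246 CPM in sham and 255, 267, 259 and 257 in TAC. None of the 4 pairs of groups overlapped: WT fell with TAC (-0.32 ± 0.05, adjusted p = 3.72e-05), JP2CR rose (0.15 ± 0.05, adjusted p = 0.0176), and JP2CR was below WT in sham and above it in TAC. Man2a1 encodes a Golgi mannosidase that trims N-linked glycans (chr17:64600688-64755110). Its levels were 37.7, 33.7, 38 and 35.3 CPM in sham and 36.3, 38, 40.0 and 42.3 after TAC among WT libraries, against 39, 37.9, 34.4 and 31.3 in sham and 64.4, 53.4, 58.4 and 60.9 after TAC among JP2CR libraries. JP2CR TAC stood above the other 3 groups, which overlapped one another, and the rise passed the test in JP2CR (0.73 ± 0.08, adjusted p = 1.15e-06) and not in WT (0.12 ± 0.08, adjusted p = 0.243).

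Of the secreted factors, Vegfa encodes the main growth factor of blood vessels (chr17:46016993-46032377). It had 406, 440.2, 425 and 439 CPM in sham and 414, 559.5, 514 and 507 after TAC among WT libraries, against 509, 506, 547 and 517 in sham and 412, 417, 404 and 384 after TAC among JP2CR libraries. All JP2CR sham libraries were above all WT sham libraries, and in TAC JP2CR was lower apart from an overlap with WT TAC 1. Vegfa rose in WT (0.22 ± 0.07, adjusted p = 0.0135) and fell in JP2CR (-0.36 ± 0.07, adjusted p = 3.89e-04), an interaction of -0.59 ± 0.10 (adjusted p = 0.0256).

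Efemp1 encodes an extracellular matrix protein of the fibulin family (chr11:28853154-28926743), with 20.6, 26, 24.9 and 23.1 CPM in sham and 11.4, 6.44, 8.04 and 7.31 after TAC among WT libraries, against 18.8, 21.8, 17.5 and 12.7 in sham and 14.8, 14.5, 15.5 and 16.6 after TAC among JP2CR libraries. WT TAC was below all other groups, and the JP2CR groups overlapped. The interaction was 1.31 ± 0.22 (adjusted p = 0.0256). Gdf10 encodes a secreted factor of the bone morphogenetic protein family (chr14:33923587-33936514) and was the least abundant of the 16, with 5.45, 5.34, 5.21 and 5.40 CPM in sham and 2.56, 1.33, 2.09 and 1.12 after TAC among WT libraries, against 3.78, 4.39, 4.75 and 3.66 in sham and 3.44, 3.63, 4.63 and 3.48 after TAC among JP2CR libraries. It had the same pattern, a fall in WT (-1.60 ± 0.20, adjusted p = 5.34e-06) with overlapping groups in JP2CR (-0.14 ± 0.18, adjusted p = 0.587), and its interaction of 1.46 ± 0.27 was the largest among the 16 genes.

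Hand2 encodes a transcription factor of heart development (chr8:57320983-57324517). Its levels were 42.9, 50.4, 47.1 and 43.7 CPM in sham and 39.2, 25.4, 34.7 and 32.6 after TAC among WT libraries, against 32.3, 32.4, 30.8 and 44 in sham and 48.7, 44.4, 47.7 and 44.1 after TAC among JP2CR libraries. It fell in WT (-0.49 ± 0.12, adjusted p = 0.00269) and rose in JP2CR (0.41 ± 0.12, adjusted p = 0.00856), and JP2CR sham 4 was the one JP2CR sham library within the range of WT sham. Cd163 encodes the haemoglobin scavenger receptor of resident macrophages (chr6:124304636-124330529), with 20.1, 21.1, 22 and 19.3 CPM in sham and 11.1, 14.2, 13.5 and 14.1 after TAC among WT libraries, against 19, 18.2, 24.5 and 29.2 in sham and 27, 27.4, 26.5 and 30.3 after TAC among JP2CR libraries. All JP2CR TAC libraries were above all WT libraries, and within JP2CR sham the 2 libraries with Xist were the highest. Without the 3 libraries with Xist the Cd163 interaction was 1.18 (adjusted p = 5.36e-04), against 0.94 ± 0.17 with all (adjusted p = 0.0398).

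**Figure D3:**
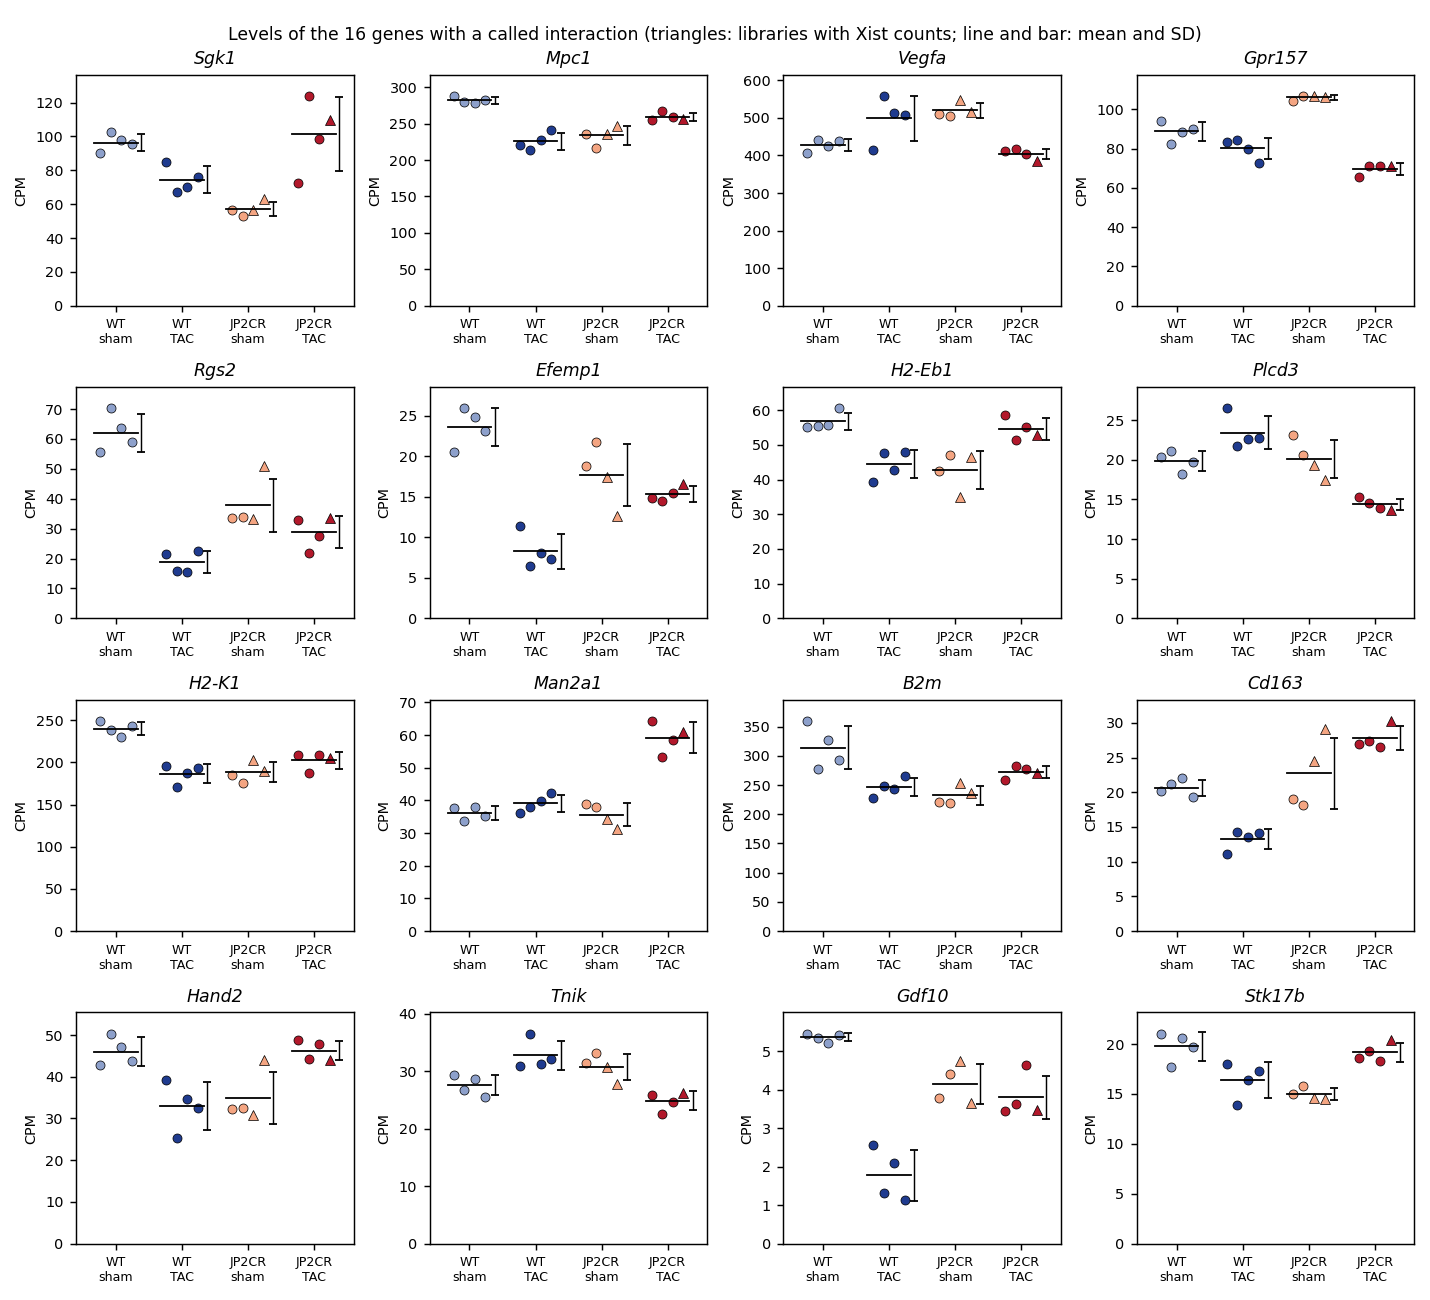
CPM of the 16 called genes in each library, in panels with an axis from 0, with the mean and SD of each group (n = 4) and triangles for the 3 libraries with Xist counts. Mpc1 and H2-Eb1 show no overlap in any of the 4 pairs of groups, and Plcd3 and Man2a1 show JP2CR TAC apart from the other groups.

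The called antigen presentation genes all had interactions above 0. MHC class I molecules show peptides from inside the cell and need the light chain beta-2 microglobulin, and class II molecules show peptides that macrophages, dendritic cells and B cells have taken up. H2-K1, a class I heavy chain gene (chr17:33996012-34000619), had 249, 238, 230.0 and 243 CPM in sham and 196, 170.2, 187 and 193 after TAC among WT libraries, against 185, 176, 203 and 190.0 in sham and 209, 187, 208 and 205 after TAC among JP2CR libraries. B2m, the light chain gene (chr2:122147687-122153082), had 360.1, 277, 327 and 292 CPM in sham and 228, 248, 243 and 266 after TAC among WT libraries, against 221, 219, 254 and 237 in sham and 259, 283, 277 and 271 after TAC among JP2CR libraries. In both genes WT sham stood above the other WT and the JP2CR sham libraries, and the TAC libraries of the genotypes overlapped. Their interactions were 0.46 ± 0.08 and 0.58 ± 0.10 (adjusted p = 0.0282 and 0.0398). H2-Eb1, a class II beta chain gene (chr17:34305867-34316674), had 55.2, 55.5, 55.8 and 60.6 CPM in sham and 39.4, 47.7, 42.9 and 47.9 after TAC among WT libraries, against 42.4, 47, 35.1 and 46.5 in sham and 58.5, 51.4, 55.1 and 52.9 after TAC among JP2CR libraries. It fell in WT (-0.35 ± 0.08, adjusted p = 0.00262) and rose in JP2CR (0.36 ± 0.08, adjusted p = 0.00270), with no overlap in any pair. Reads of near-identical class I genes may be shared between them, which the sources used here do not settle.

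Of 16 class I genes tested, 2 were called higher and 0 lower, 5 had an unadjusted p under 0.05 in the higher and 1 in the lower direction, and the median was 0.09 (0.14 without the 3 libraries with Xist, with 4 called higher). H2-Q4 and H2-D1 had interactions of 0.50 ± 0.10 and 0.32 ± 0.08 (adjusted p = 0.0549 and 0.109) and were called by DESeq2 (adjusted p = 0.00279 and 0.0263). Psmb10, an immunoproteasome subunit gene of the same list, had -0.23 ± 0.08 (adjusted p = 0.265). Of 10 class II genes, 1 was called higher, 7 had an unadjusted p under 0.05, all higher, and the median was 0.71, with all 10 estimates above 0. Leaving out the 3 libraries with Xist gave a median of 0.70, with 3 called higher. With the 2 intermediate TAC libraries left out too, 0 class I and 0 class II genes were called, with medians of 0.11 and 0.73. The test of TAC in JP2CR alone called all 10 higher, and TAC in WT called 1 higher and 3 lower (over all genes, 41.5% and 41.9% in either direction). The class II mean (log2 CPM) was 4.22, 3.59, 3.97 and 3.48 in JP2CR TAC 1 to 4 and 3.09 to 3.36 in JP2CR sham. In WT it was 3.43 to 3.53 in sham and 3.39 to 3.56 after TAC. JP2CR TAC 4 thus lay within the WT range and JP2CR TAC 2 just above it. H2-DMa, H2-Aa, H2-Ab1 and Cd74, the invariant chain gene, had interactions of 0.76, 0.69, 0.63 and 0.58 (adjusted p = 0.0549, 0.0699, 0.126 and 0.129). Cd74 had 126, 149, 136 and 149.5 CPM in sham and 107, 124, 117 and 121 after TAC among WT libraries, against 113, 117, 97.1 and 122 in sham and 176, 114, 143 and 127 after TAC among JP2CR libraries, with JP2CR TAC 1 the highest library and JP2CR sham below WT sham.

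Markers of the immune cells that carry class II were read beside these genes. Among 4 dendritic cell markers tested, 0 were called, 0 had an unadjusted p under 0.05, and the median was -0.02. Of 19 macrophage markers tested, 1 (Cd163) was called higher, 2 had an unadjusted p under 0.05, and the median was 0.09 (0.25 without the 3 libraries with Xist, with 2 called higher). Summed over the list, macrophage markers ran from 388 to 431 CPM in WT after sham and 531 to 571 after TAC, and 402 to 490 in JP2CR after sham and 590 to 706 after TAC, and none of the 20 markers was at 0 in all libraries. Among 6 B and plasma cell markers tested, 0 were called by edgeR or limma voom and 1 (Jchain) by DESeq2. An unadjusted p under 0.05 was found in 2 of them, both higher, and the median was 1.88. Ighm, Igkc and Iglc2 of that list are not in the count table. The summed B and plasma cell markers ran from 7.47 to 9.01 CPM in WT after sham and 5.51 to 13.4 after TAC. In JP2CR they ran from 4.75 to 7.11 after sham and 8.16 to 81.1 after TAC. The joining chain gene Jchain of plasma cells had 45.4, 4.03, 21.2 and 3.48 CPM in JP2CR TAC 1 to 4 and 0.784, 1.74, 0.432 and 1.05 in JP2CR sham, against 2.27, 2.79, 3.26 and 3.46 in WT sham and 5.50, 0.664, 2.18 and 3.85 in WT TAC. JP2CR TAC 1 and 3 were the highest libraries for Jchain, for the class II mean and for Ccl6 alike. The part of these cells in the antigen presentation result was not tested.

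Immediate early genes, transcription factor and feedback genes switched on within minutes by calcium, growth factors or stress, had interactions above 0 in 23 of 32 genes, none past the threshold over all genes. Of 32 tested, 0 were called by edgeR and 0 by limma voom, 8 were called higher by DESeq2, 16 had an unadjusted p under 0.05, all higher, and the median was 0.55. With the 3 libraries with Xist left out edgeR called 7 higher and 0 lower, with a median of 0.65, and with the 2 intermediate TAC libraries left out too it called 1 higher. Fos had 17, 37.9, 23.8 and 30.1 CPM in sham and 4.42, 14.5, 9.13 and 11.1 after TAC among WT libraries, against 5.70, 5.58, 8.88 and 3.66 in sham and 3.07, 32.5, 19.4 and 26.5 after TAC among JP2CR libraries. JP2CR sham lay below WT sham, and JP2CR TAC 1 was below all JP2CR sham libraries while JP2CR TAC 2 to 4 were above them, so 1 library differs in direction from its group. The Fos interaction was 3.20 ± 0.67 (adjusted p = 0.0555). Zfp36, which encodes a protein that destabilises inflammatory mRNAs, had 24.3, 24.5, 25 and 30.4 CPM in sham and 26.6, 81.6, 56.1 and 75.5 after TAC among JP2CR libraries, again with JP2CR TAC 1 near sham, and an interaction of 1.59 ± 0.31 (adjusted p = 0.0549). WT libraries had 44.5 to 55.1 CPM of Zfp36 in sham and 33.7 to 41.4 after TAC. Both WT TAC and JP2CR sham lay below WT sham with no overlap. Klf2, a flow-responsive factor of endothelium, had 70.3, 73.3, 66.4 and 72.6 CPM in sham and 53.6, 54.5, 50.8 and 58.9 after TAC among WT libraries, against 38, 35, 37.6 and 39.1 in sham and 34.7, 55.3, 45.4 and 57 after TAC among JP2CR libraries. It was called lower in JP2CR than in WT in sham (-0.92 ± 0.11, adjusted p = 0.00206), and its interaction was 0.74 ± 0.15 (adjusted p = 0.0549). Fosb and Junb had interactions of 3.45 ± 0.80 and 1.49 ± 0.36 (adjusted p = 0.0898 and 0.109). The mean log2 CPM of the list was 4.15 ± 0.12 (SD, n = 4) in WT after sham and 4.23 ± 0.13 after TAC, and 3.58 ± 0.30 in JP2CR after sham and 4.43 ± 0.36 after TAC.

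Genes that respond to glucocorticoids, the adrenal stress hormones, also had interactions mostly above 0, in 17 of 18. Of the 18 tested, 1 (Sgk1) was called, 8 had an unadjusted p under 0.05, all higher, and the median was 0.65. TAC in JP2CR alone was called as a rise in 10 of them and as a fall in 0, where 41.5% of all genes were called in either direction. TAC in WT was called as a rise in 5 and a fall in 2, against 41.9% of all genes. Ddit4, an inhibitor gene of the growth kinase mTOR complex, had 54, 79.2, 61.3 and 67.9 CPM in sham and 99.9, 41.8, 70.3 and 66.8 after TAC among WT libraries, against 42.8, 43, 27.1 and 26.9 in sham and 49.9, 108, 89.4 and 109 after TAC among JP2CR libraries. JP2CR sham was below WT sham in all libraries, and JP2CR TAC was above JP2CR sham in all libraries (1.27 ± 0.36, adjusted p = 0.167 for the interaction). Errfi1 and Klf9 had interactions of 0.99 ± 0.28 and 0.63 ± 0.22 (adjusted p = 0.165 and 0.291). Within JP2CR sham the mean log2 CPM of the list was 4.53 and 4.48 in libraries 1 and 2 and 5.17 and 5.27 in libraries 3 and 4, those with Xist. Without the 3 libraries with Xist the median was 1.15 and 7 of the genes were called higher. With the 2 intermediate TAC libraries left out too, the median was 1.12 and 4 were called higher. The labels give all libraries as male, against the Xist and Y-linked counts of libraries 3 and 4, and the part of sex in this split was not tested.

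**Figure D4:**
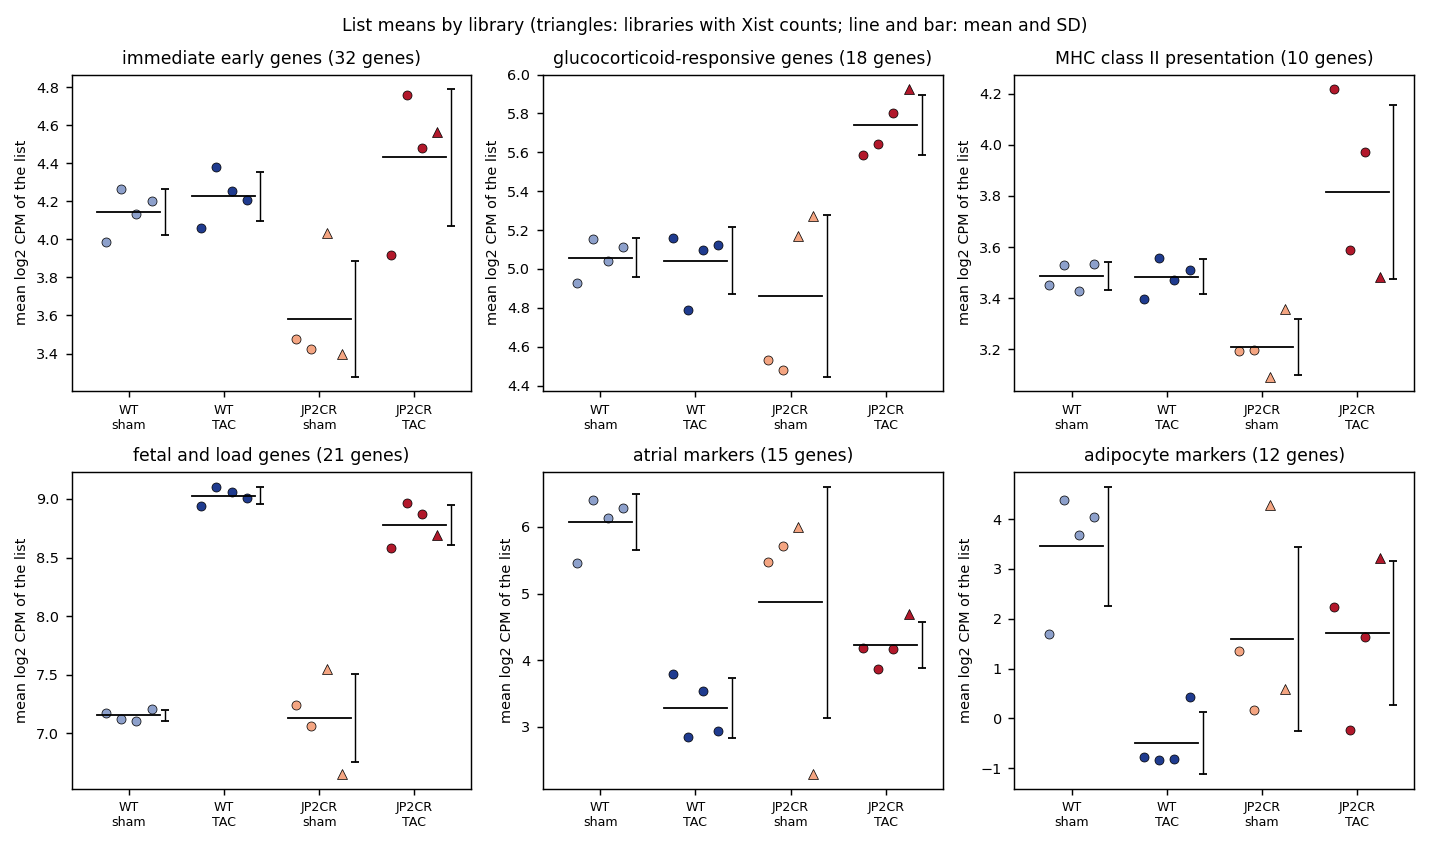
Mean log2 CPM of 6 gene lists in each library, with the mean and SD of each group (n = 4) and triangles for the 3 libraries with Xist counts; the axes do not start at 0. Glucocorticoid-responsive genes split JP2CR sham into 4.48 to 4.53 and 5.17 to 5.27, and atrial markers stand at 2.28 in JP2CR sham 4.

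The genes that mark hypertrophy had interactions mostly below 0, with 4 of 21 above it. Fetal and load genes are those that the stressed ventricle switches back on. Of 21 tested, 0 were called in either direction (0 by limma voom, 3 lower by DESeq2: Nppb, Rcan1 and Synpo2l), 7 had an unadjusted p under 0.05, all lower, and the median was -0.25. The median was -0.06 without the 3 libraries with Xist, with 3 called lower, and -0.08 with the 2 intermediate TAC libraries left out too, with 1 called lower. TAC alone was called as a rise in 20 of them in WT and 19 in JP2CR, with median rises of 1.63 and 1.33 (log2). Nppb, the B-type natriuretic peptide gene, had 133, 114, 126 and 121 CPM in sham and 827, 1101, 991 and 987 after TAC among WT libraries, against 207, 172, 269 and 125 in sham and 695, 808, 734 and 575 after TAC among JP2CR libraries. In TAC every JP2CR library was below every WT library, in sham the genotypes overlapped, and the interaction was -1.12 ± 0.23 (adjusted p = 0.0549; -1.01 with adjusted p = 0.00115 without the 3 libraries with Xist). Rcan1, a feedback inhibitor gene of calcineurin whose transcript reads out that pathway, had 258, 623, 438 and 460.2 CPM in WT TAC and 264, 205, 235 and 172 in JP2CR TAC, with an interaction of -1.19 ± 0.30 (adjusted p = 0.118). Synpo2l, Xirp2 and Enah, genes of the Z-disc and the actin cytoskeleton, had -0.47 ± 0.10, -0.44 ± 0.13 and -0.25 ± 0.08 (adjusted p = 0.0705, 0.168 and 0.227). In TAC the JP2CR libraries of all 3 were below the WT libraries with no overlap, against 8.09% of all genes without overlap in either direction. The 3 genes were named by smallest interaction p in the same libraries, so nothing is read from this. Over the 18 calcineurin and NFAT genes tested, which do not include Rcan1, 0 were called by edgeR, DESeq2 or limma voom, 0 had an unadjusted p under 0.05, and the median was 0.00 (-0.07 without the 3 libraries with Xist, with 1 called lower).

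The best known members of the hypertrophic programme had interactions that could not be told from 0. Myh7, the slow myosin heavy chain gene, had 286, 247, 253 and 271 CPM in sham and 8012, 5851, 7041 and 7768 after TAC among WT libraries, against 234, 235, 296 and 92.2 in sham and 4922, 4808, 4867 and 3655 after TAC among JP2CR libraries. In TAC the JP2CR libraries were all below the WT libraries, but JP2CR sham 4 was also low, and the interaction was -0.36 ± 0.31 (95% interval -1.01 to 0.30, adjusted p = 0.754). Without JP2CR sham 4 it was -0.59 (adjusted p = 0.109), without JP2CR sham 3 -0.15 (adjusted p = 0.888), and with the marker covariates -0.87 (adjusted p = 0.235). Intervals were -1.66 to 1.38 for Nppa, the atrial natriuretic peptide gene, -1.28 to 0.92 for the skeletal actin gene Acta1, -0.33 to 0.25 for the fast myosin gene Myh6 and -0.10 to 0.24 for the calcium pump gene Atp2a2. Nppa had 1936, 1295, 3890.3 and 149 CPM in JP2CR sham, where library 4 was also the one low in atrial markers. The Nppa interaction was -0.14 in edgeR, 0.59 in limma voom and -1.58 with the marker covariates, so its direction is not settled.

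Genes of the dyad, where junctophilin-2 sits, and of the calpain system showed no called interaction. Of 27 dyad and calcium handling genes, 0 were called by edgeR and 0 by limma voom, DESeq2 called 1 higher, 2 had an unadjusted p under 0.05 in each direction, and the median was 0.01. Ryr2, the calcium release channel gene, had an interval of -0.25 to 0.19. Among 10 calpain and calpastatin genes, 0 were called by any of the 3 tools, 0 had an unadjusted p under 0.05, and the median was -0.02. Intervals were -0.14 to 0.30 for Capn1, -0.05 to 0.24 for Capn2 and -0.22 to 0.14 for the inhibitor gene Cast. Capn2 had 115, 122, 123 and 123 CPM in WT TAC and 129, 139, 128 and 133 in JP2CR TAC, where the genotypes did not overlap, though the interaction was 0.10 ± 0.07 (adjusted p = 0.684).

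Energy metabolism differed by list. Of 30 fatty acid oxidation genes, 0 were called by edgeR and 0 by limma voom, DESeq2 called 1 (Acaa2) higher, 7 had an unadjusted p under 0.05 in the higher and 1 in the lower direction, and the median was 0.12. Acaa2, the last enzyme of the mitochondrial cycle, had 1307, 1436, 1376 and 1438 CPM in sham and 544, 521, 541 and 589 after TAC among WT libraries, against 1285, 1274, 1107 and 1302 in sham and 617, 579.5, 592 and 708 after TAC among JP2CR libraries. TAC lowered it in both genotypes with no overlap, by 1.34 in WT and 0.99 in JP2CR on the log2 scale, so the interaction of 0.35 ± 0.09 (adjusted p = 0.146) is a difference between 2 falls, and JP2CR sham 3 was the lowest sham library. Decr1, Eci2 and Cpt2, enzymes of the same pathway, had 0.29 ± 0.08, 0.18 ± 0.06 and 0.23 ± 0.08 (adjusted p = 0.168, 0.282 and 0.316). By contrast, the 40 respiratory chain genes and the 15 tricarboxylic acid cycle genes had 0 called by edgeR, DESeq2 or limma voom and 0 at an unadjusted p under 0.05, with medians of 0.00 and 0.03, although TAC alone was called as a fall in 38 and 39 of the 40 in WT and JP2CR. Nnt, the mitochondrial transhydrogenase gene, had an interval of -0.26 to 0.07.

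Among metabolic regulators, 0 of 17 were called by edgeR or limma voom, DESeq2 called 1 lower (Ppargc1b), and 2 had an unadjusted p under 0.05 in each direction. Ppargc1b, a coactivator gene of mitochondrial biogenesis, had 24.1, 29, 24.9 and 25.9 CPM in sham and 28.2, 36.3, 32.5 and 29.1 after TAC among WT libraries, against 27.2, 31, 30.8 and 34.1 in sham and 23.7, 22.6, 24.4 and 26.2 after TAC among JP2CR libraries. It rose in WT (0.28 ± 0.09, adjusted p = 0.0165) and fell in JP2CR (-0.34 ± 0.09, adjusted p = 0.00521), an interaction of -0.62 ± 0.12 just outside the threshold (adjusted p = 0.0549). Of 19 genes of glycolysis and glucose uptake, 0 were called by edgeR or limma voom, DESeq2 called 1 lower (Hk2), and 1 had an unadjusted p under 0.05 in the higher and 3 in the lower direction. Hk2, the muscle hexokinase gene, had 442, 447, 442 and 443 CPM in WT TAC and 376, 409.7, 383 and 416 in JP2CR TAC, without overlap, and an interaction of -0.22 ± 0.06 (adjusted p = 0.168).

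Interferon response genes had estimates in both directions, with 8 of 35 above 0. Of 35 tested, 0 were called by edgeR, DESeq2 called 3 higher (Igtp and Irgm2 among them) and limma voom 1 (Igtp), 4 had an unadjusted p under 0.05 in the higher and 7 in the lower direction, and the median was -0.21. Leaving out the 3 libraries with Xist gave a median of -0.09, with 2 called higher and 0 lower, and leaving out the 2 intermediate TAC libraries as well gave -0.04, with 1 called higher. Igtp and Irgm2 are known targets of interferon gamma. Igtp, an immunity-related GTPase gene, had 38.6, 35, 36.7 and 37.5 CPM in sham and 16.5, 15.8, 16.2 and 15.7 after TAC among WT libraries, against 23.5, 24.6, 23.2 and 28.6 in sham and 23.4, 15.7, 15.6 and 18.1 after TAC among JP2CR libraries. WT sham stood alone at the top, and the interaction was 0.75 ± 0.15 (adjusted p = 0.0522). Irgm2, of the same family, also had WT sham above the other 3 groups, with 0.55 ± 0.11 (adjusted p = 0.0549). Rsad2, an antiviral gene known for its response to type I interferon, had 22.5, 19.6, 24 and 20.5 CPM in sham and 23.2, 35.7, 29.3 and 31.6 after TAC among WT libraries, against 31.1, 29.2, 29 and 31.4 in sham and 31.2, 26.9, 27.7 and 28.7 after TAC among JP2CR libraries, and an interaction of -0.55 ± 0.14 (adjusted p = 0.129).

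Chemokine and cytokine genes had a median of 0.42 over 21 tested, with 0 called by edgeR or limma voom, 1 called higher by DESeq2 (Ccl11), and 5 at an unadjusted p under 0.05, all higher. Ccl6, a macrophage chemokine gene, had 7.80, 7.76, 8.31 and 9.98 CPM in sham and 6.90, 5.84, 7.04 and 9.63 after TAC among WT libraries, against 7.63, 9.15, 13.3 and 10.2 in sham and 37.9, 12.6, 27.1 and 15.7 after TAC among JP2CR libraries. Every JP2CR TAC library was above every WT library, with JP2CR TAC 1 and 3 highest, and the interaction was 1.41 ± 0.40 (adjusted p = 0.168). Cxcl1, a neutrophil attractant gene, had 0.784, 0.915, 0.802 and 0.941 CPM in sham and 2.02, 2.82, 2.55 and 2.47 after TAC among JP2CR libraries (1.44 ± 0.41, adjusted p = 0.168). WT libraries had 1.09 to 1.73 CPM of Cxcl1 in sham and 0.852 to 2.57 after TAC. The genotypes overlapped in TAC, and JP2CR was below WT in sham.

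Clock genes were split between directions and between libraries. Of 19 tested, 0 were called by edgeR, DESeq2 or limma voom, 4 had an unadjusted p under 0.05 in the higher and 3 in the lower direction, and the median was 0.36. Leaving out the 3 libraries with Xist gave a median of 0.99, with 2 called higher and 3 lower. With the 2 intermediate TAC libraries left out too, the median was 0.98, with 1 called higher and 0 lower. Nr1d1, a repressor gene of the clock, had 187, 169, 173 and 187 CPM in sham and 134, 68.6, 104 and 89.4 after TAC among WT libraries, against 121, 127, 60.7 and 223 in sham and 181, 130.4, 155 and 112 after TAC among JP2CR libraries. Npas2, which its product represses, had 5.54, 5.59, 6.27 and 8.18 CPM in sham and 5.35, 16.9, 10.5 and 15.3 after TAC among WT libraries, against 13.5, 14.5, 3.27 and 3.45 in sham and 6.29, 4.84, 4.48 and 4.95 after TAC among JP2CR libraries. JP2CR sham 1 and 2 differed from 3 and 4 in Npas2, and WT TAC 1 from WT TAC 2 to 4. The hour at which each heart was taken is not given in the sources used here. Interactions were 0.99 ± 0.38 for Nr1d1 and -1.66 ± 0.59 for Npas2 (adjusted p = 0.350 and 0.292), and without the 3 libraries with Xist they were 1.19 and -2.33 (adjusted p = 0.0120 and 0.00704).

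**Figure D5:**
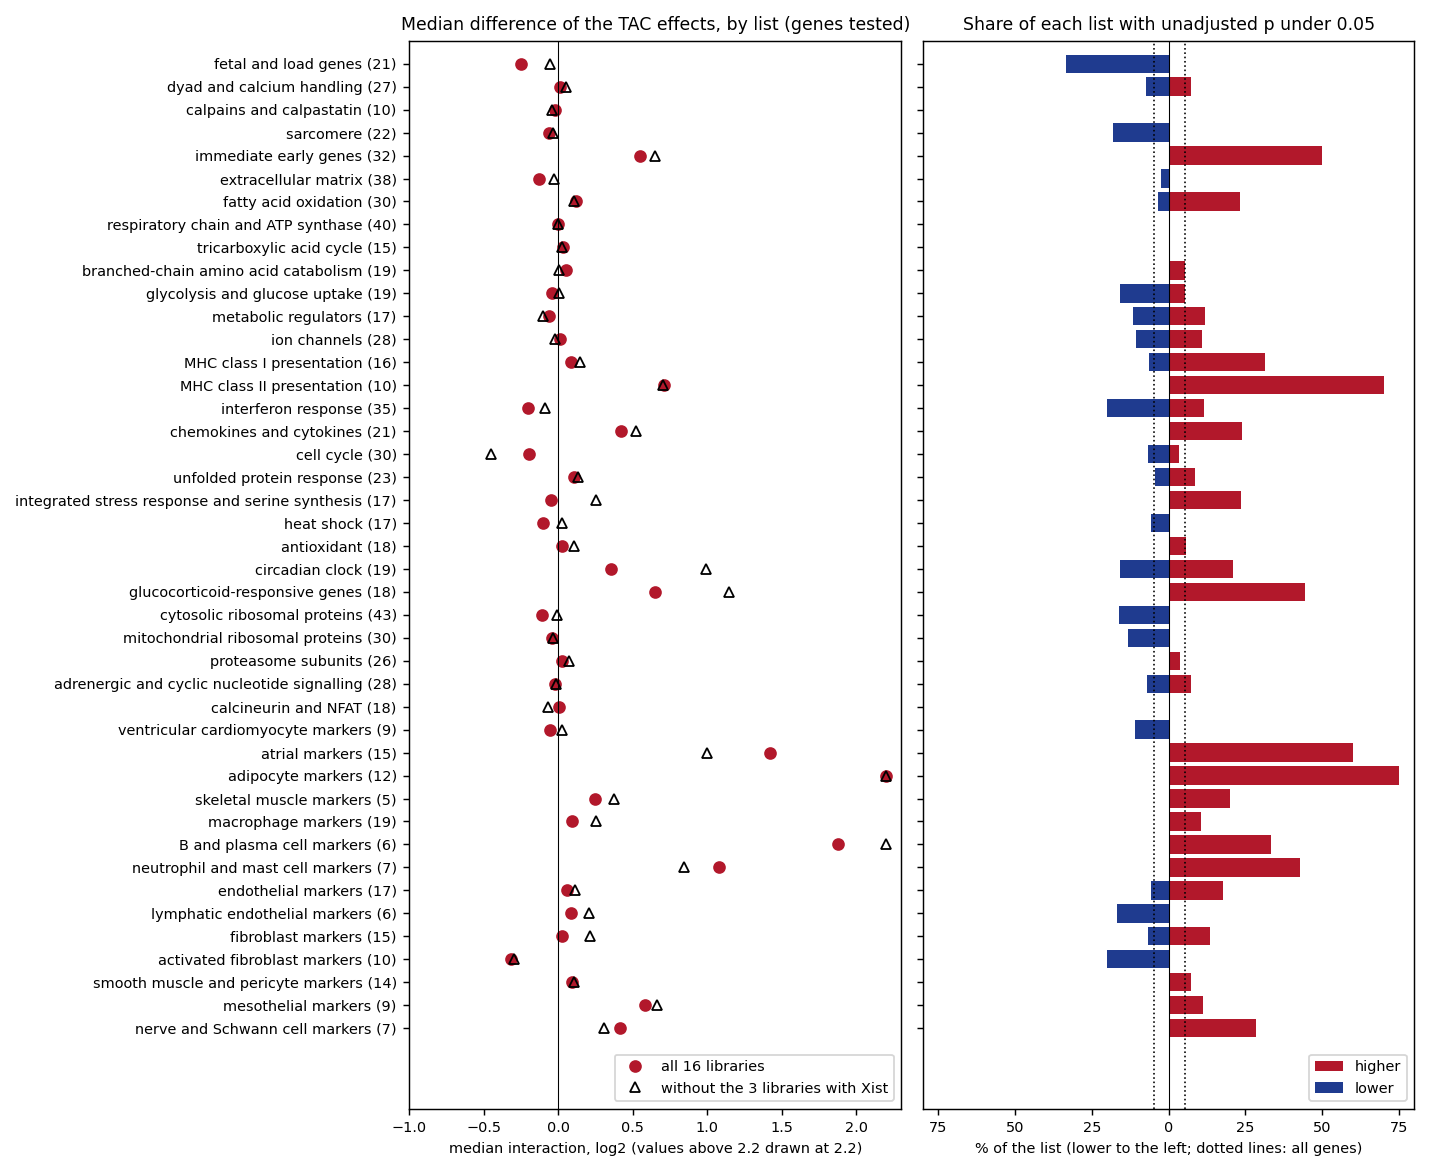
Left, the median interaction (log2) of the gene lists with at least 5 genes tested, sex-linked genes left out, with the number tested, in all 16 libraries (circles) and without the 3 libraries with Xist (triangles), with values above 2.2 drawn at 2.2. Right, the share of each list with an unadjusted p under 0.05, higher to the right and lower to the left, with dotted lines at the shares over all genes (5.47% and 4.84%); among the lists drawn, adipocyte, class II, atrial and immediate early lists reach furthest right and fetal and load genes furthest left.

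Ribosomal, matrix, sarcomere and cell cycle lists had medians below 0. None of 43 cytosolic ribosomal protein genes had an estimate above 0, the median was -0.11, and 7 had an unadjusted p under 0.05, all lower, but without the 3 libraries with Xist the median was -0.01. Extracellular matrix genes, of which TAC alone raised 35 of 38 in WT and 33 in JP2CR, had a median interaction of -0.13 and 1 gene at an unadjusted p under 0.05, lower. The median was -0.06 over 22 sarcomere genes and -0.20 over 30 cell cycle genes. Matrix, sarcomere and cell cycle medians were -0.03, -0.03 and -0.45 without the 3 libraries with Xist, with 0 called in each. In each of these 4 lists, over all 16 libraries, 0 genes were called by edgeR, DESeq2 or limma voom.

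Atrial and adipose markers gave some of the highest medians in the interaction, although the tissue is labelled ventricle. Of 15 atrial markers, 0 were called by edgeR or limma voom and 1 (Kcnj3) by DESeq2, 9 had an unadjusted p under 0.05, all higher, and the median was 1.42 (1.0 without the 3 libraries with Xist). Sln, the sarcolipin gene of atrial muscle, had 152, 211, 191 and 199 CPM in sham and 22.2, 2.32, 10.6 and 2.25 after TAC among WT libraries, against 143, 82.4, 184 and 0.105 in sham and 29, 42, 33.1 and 58.3 after TAC among JP2CR libraries. Kcnj3, an atrial potassium channel gene, had 50.7, 32.8, 40.9 and 47.2 CPM in WT TAC and 79.9, 57.3, 61 and 75.7 in JP2CR TAC, and an interaction of 0.88 ± 0.18 (adjusted p = 0.0549). Stard10 and Sbk2 had interactions of 1.42 ± 0.41 and 1.85 ± 0.52 (adjusted p = 0.171 and 0.168). Over the list, TAC in WT was called as a fall in 14 markers and a rise in 1, and TAC in JP2CR as a fall in 9 and a rise in 0. The mean log2 CPM was 6.07 ± 0.42 (SD, n = 4) in WT after sham and 3.28 ± 0.46 after TAC, and 4.87 ± 1.74 in JP2CR after sham and 4.23 ± 0.34 after TAC. The summed level differed in direction from the list in WT, and Nppa, which is also a load gene, made up 47.9% of it in WT sham and 95.5% in WT TAC (55.0% and 87.4% in JP2CR). The sum ran from 3494 to 5094 CPM in WT after sham and 4006 to 7667 after TAC, and 412 to 6430 in JP2CR after sham and 4305 to 5342 after TAC. None of the 15 markers was at 0 in all libraries. Of the 15, 4 were called higher without the 3 libraries with Xist, and 0 with the 2 intermediate TAC libraries left out too.

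Of 12 adipocyte markers, 0 were called by edgeR or limma voom, DESeq2 called 3 higher (Plin1, Retn and Ucp1), 9 had an unadjusted p under 0.05, all higher, and the median was 5.10, also with Retn and Ucp1, which had 0 counts throughout a group, set at 3 counts over the group. Other members were left as counted, among them Plin1 with 1 count in each WT TAC library. The size of the median therefore rests on levels near 0, and how far was not tested. Adipoq, the adiponectin gene of fat cells, had 1.26, 14, 7.74 and 8.80 CPM in sham and 0, 0.133, 0 and 0.642 after TAC among WT libraries, against 1.21, 0.458, 14.7 and 0.314 in sham and 5.61, 0.161, 4.25 and 6.08 after TAC among JP2CR libraries. WT TAC had at most 0.642 CPM, and the JP2CR groups spread widely, with JP2CR sham 3 the highest. Plin1, the fat droplet coat gene, had 1.85, 18.1, 8.88 and 14.1 CPM in sham and 0.0775, 0.0664, 0.0838 and 0.0803 after TAC among WT libraries, against 0.856, 0.366, 10.8 and 0.418 in sham and 2.62, 0.161, 2.01 and 5.55 after TAC among JP2CR libraries. Over the list, TAC was called as a fall in 10 of the 12 in WT and in 0 in JP2CR. The mean log2 CPM was 3.45 ± 1.20 (SD, n = 4) in WT after sham and -0.50 ± 0.62 after TAC, and 1.6 ± 1.85 in JP2CR after sham and 1.71 ± 1.45 after TAC. The summed level changed less, from 426 to 731 CPM in WT after sham and 377 to 450 after TAC, and 371 to 805 in JP2CR after sham and 504 to 652 after TAC. Fabp4, a fatty acid carrier gene that capillary endothelium also expresses, made up 70.1% of it in WT sham and 91.7% in WT TAC (79.6% and 83.2% in JP2CR). None of the 12 was at 0 in all libraries, and without the 3 libraries with Xist 7 were called higher with a median of 6.86. With the 2 intermediate TAC libraries left out too, 0 were called, with a median of 6.62. The fit with both marker means as covariates gave the values stated above for the 16 genes.

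Leaving out the 3 libraries with Xist brought other genes forward, named here after their values were seen. Fkbp5, a co-chaperone gene of the glucocorticoid receptor, had 12.5, 14, 13 and 15.8 CPM in sham and 27.4, 24.8, 27.9 and 29.2 after TAC among WT libraries, against 13.3, 12.9, 51.6 and 38.8 in sham and 86.5, 62.1, 76.2 and 77.3 after TAC among JP2CR libraries. JP2CR sham 3 and 4 were above JP2CR sham 1 and 2, and the interaction was 0.39 ± 0.44 with all libraries (adjusted p = 0.823) and 1.55 ± 0.17 without the 3 (adjusted p = 5.36e-04). Cebpb, a stress and inflammation factor, had 3.64, 3.20, 10.5 and 10.8 CPM in sham and 12, 12.3, 14 and 14.3 after TAC among JP2CR libraries, and its interaction went from 1.12 ± 0.40 (adjusted p = 0.294) to 2.11 ± 0.25 (adjusted p = 6.63e-04). Sox4, a developmental transcription factor, had 30.7, 33.6, 10.5 and 12.8 CPM in sham and 20.7, 11.8, 15.8 and 9.02 after TAC among JP2CR libraries, and its interaction went from -0.98 ± 0.42 (adjusted p = 0.410) to -1.35 ± 0.19 (adjusted p = 0.00183). In all 3 genes JP2CR sham 1 and 2 agreed closely and differed from 3 and 4, so the value rests on which pair stands for the group. Sex and the other ways in which these libraries differ cannot be told apart here.

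Of the 16 called genes, 5 lie on chromosome 17 (Mpc1, Vegfa, H2-Eb1, H2-K1 and Man2a1), which holds 4.88% of the tested genes with a position, and 1, B2m, lies on chromosome 2 with Jph2. The 5 lie between Mpc1 (chr17:8283787-8297667) and Man2a1 (chr17:64600688-64755110). At the edge of the threshold, Tnik and Gdf10 (adjusted p = 0.0408) and Stk17b (0.0417) were the last genes inside, and Igtp (0.0522), Zfp36, Irgm2 and Ppargc1b (0.0549) were among the first outside.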

How the data were processed

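Whole-number read counts per gene symbol, not normalized, were deposited by the authors in 1 table of 16 libraries; libraries are stranded, per the labels' protocols. Per the submitters' processing notes the build was mm10 and the tools were FastQC 1.0.0, Picard 1.128, STAR 2.5.0b, Cufflinks 2.2.1, bedtools 2.17.0 and DESeq2 1.6.3; which of them counted reads, with what strand setting and annotation, is not given in the sources used here. The log2 fold changes, adjusted p-values and other columns that the authors deposited beside the counts were not used. The test was edgeR 4.0.16 under R 4.3.3 (filterByExpr per group, TMM factors, a mean per group over all 16 libraries, quasi-likelihood F test). A standard error is the size of the log2 value divided by the square root of F. CPM are relative to TMM-scaled totals, and list means use a prior count of 2. Genes were named by rule: up to 15 called genes in each direction whose mean log2 CPM reached 1 and no predicted-gene symbol, among called genes the 8 largest and 8 smallest interactions, 12 genes always, and up to 5 members of each of 47 lists by smallest p. A few genes that the rule names are not reported here. Members, lists and rule were chosen with earlier results of these data known. Alternatives were DESeq2 1.42.0, limma 3.58.1 voom, other scalings, filters and thresholds, a replicate block, marker covariates, and leaving out each library or the doubted ones; DESeq2 and voom without the doubted libraries were added after seeing the data. Replicate numbers did not pair the libraries. Fits were tested on simulated counts. Coordinates are from RefSeq (GRCm38.p6) and, for Jph2, GENCODE. Symbols turned into dates (27) name no gene here. Figures were drawn with matplotlib 3.10.9.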

Additional observations from a re-analysis of the deposited data

Results flagged for a closer look

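Some libraries stood far from the other 3 of their group. The gap between a library and its nearest neighbour was large against the range of the group in 27 of 320 sets of 4 libraries (80 genes in 4 groups), where chance gives about 1 flag in 20 sets, or 16. Each is given as CPM with the range of the other 3 libraries. In JP2CR TAC 1 the values were Gpr157 65.3 (71.1 to 71.3), H2-Aa 74.5 (56.8 to 59) and Irgm2 38.6 (30.4 to 31.6). In JP2CR sham 4 the values were Rgs2 51 (33.1 to 33.8), Hand2 44 (30.8 to 32.4) and Zfp36 30.4 (24.3 to 25). WT sham 4 had H2-Eb1 60.6 (55.2 to 55.8). JP2CR TAC 2 had H2-K1 187 (205 to 209). JP2CR TAC 3 had Gdf10 4.63 (3.44 to 3.63). In JP2CR TAC 4 the values were Myh6 27619 (24030.1 to 24425), Myh7 3655 (4808 to 4922), Nnt 1176 (1078 to 1091) and Stard10 30.8 (14.7 to 16.7). In WT TAC 4 the values were Ryr2 2455 (2177 to 2196), Car3 3.77 (0.0775 to 0.168) and Cidec 0.482 (0.0664 to 0.0838). WT sham 3 had Psmb10 35.3 (39.6 to 40.2). In WT TAC 1 the values were H2-Aa 43.7 (54.7 to 56.8) and Esrrb 61.8 (51.5 to 52.7). In JP2CR sham 3 the values were Acaa2 1107 (1274 to 1302), Plin1 10.8 (0.366 to 0.856), Car3 103 (3.29 to 10.6), Adipoq 14.7 (0.314 to 1.21) and Cidec 18.7 (0.366 to 1.28). WT sham 1 had Pparg 9.90 (13 to 13.6). JP2CR sham 2 had Tat 0.275 (0.784 to 0.863). WT TAC 2 had Hk2 447 (442 to 443). A test of the difference between the TAC effects of the 2 genotypes passed the threshold in the 16 genes of the report (edgeR, adjusted p under 0.05), with log2 differences, JP2CR minus WT, of Sgk1 1.19, Mpc1 0.47, Vegfa -0.59, Gpr157 -0.46, Rgs2 1.35, Efemp1 1.31, H2-Eb1 0.71, Plcd3 -0.73, H2-K1 0.46, Man2a1 0.62, B2m 0.58, Cd163 0.94, Hand2 0.90, Tnik -0.56, Gdf10 1.46 and Stk17b 0.63.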

How the results depend on the processing

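All 16 genes kept their direction under every setting run, but the settings reuse the libraries that chose the genes, so this is not independent support. The counts of genes called higher and lower moved more, and apart from the settings whose construction sets the count the cause was not tested. Against 12 higher and 4 lower, DESeq2 called 91 and 41, and the fit with no filter on low counts 29 and 10. With the replicate block, edgeR called 7 and 2 and kept 8 of the 16; same-numbered libraries correlated between -0.187 and 0.108 in 24 pairs, so the numbers do not pair them. Atrial and adipocyte covariates gave 1 and 1. At an adjusted p under 0.01 edgeR called 0 and 0 (limma voom 0 and 0, DESeq2 38 and 17), and asking also for a change of at least 1.5-fold left 9 higher and 2 lower. Without the 3 libraries with Xist the counts were 213 and 159 (DESeq2 280 and 211, limma voom 166 and 137). Without the 2 intermediate TAC libraries they were 0 and 0, with 1049 genes at an unadjusted p under 0.05 (DESeq2 36 and 12, limma voom 0 and 0). Without all 5 they were 42 and 17 (DESeq2 124 and 82, limma voom 44 and 20). Of the 16 genes, edgeR and limma voom then each called only 7 and DESeq2 14, with adjusted p up to 0.143 in edgeR. Leaving out each library in turn gave 2 to 93 higher and 0 to 27 lower. The highest counts came without JP2CR sham 3 (93 and 27), JP2CR TAC 1 (51 and 13), JP2CR sham 4 (38 and 15) and WT TAC 1 (27 and 19). The lowest, 2 and 0, came without WT sham 3 or 4, WT TAC 2 or 3, JP2CR sham 1, or JP2CR TAC 3 or 4; it was 4 and 0 without JP2CR sham 2, 8 and 2 without WT sham 1, and 8 and 3 without WT TAC 4. A level under 3 counts, 0.185 to 0.314 CPM, cannot be told from 0 at this depth.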
